A study of Rattus norvegicus with 7 samples.

Results

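The 10 circadian clock genes described here were Per1, Per2, Per3, Cry1, Cry2, Nr1d1, Nr1d2, Dbp, Tef and Bhlhe40. They were taken by gene symbol and not by a cut on their values, but with earlier results of these data known. All 10 were found among the 17147 genes of each library. The libraries were RNA-seq of rat mesenchymal stem cells (rMSCs), primary bone marrow cells that adhere to plastic, 4 h after seeding in serum-containing growth medium. They comprised 3 libraries on ISB-P film, a polycaprolactone-based polyurethane made with propoxylated isosorbide, 3 on film of polycaprolactone (PCL) and 1 on tissue culture plastic (TCP). The study compared the surfaces to look for transcripts that go with the stronger cell adhesion on ISB-P. All cells were untreated apart from the surface, and the study's methods describe isolation from a male Sprague-Dawley rat aged 6 weeks, so nothing says that the replicates came from separate animals and the p-values measure only the spread between these samples, which may be technical. What the replicate numbers 1, 2 and 3 stand for (a day, a passage, a time of day) is not given, and TCP has 1 library and no replicate check.

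Values were FPKM, fragments scaled to transcript length and to the mapped fragments of the library, so levels could be compared between genes. The FPKM values of a library summed to between 539393 and 660124, the read depth is unknown, and all 10 genes passed the filter on low values (1 FPKM or more in 3 or more film libraries), as 9467 genes did. Among 10 mesenchymal markers, Col1a2 was listed at 0 in every library, and the markers together summed to 10246 to 17981 FPKM. The endothelial markers summed to no more than 1.39 FPKM in any library. Of the 9 blood markers found, Cd34 and Hbb were listed at 0 throughout, and the list summed to 39.2 to 46.6 FPKM on the films.

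The circadian clock is a transcription feedback loop found in nearly every cell type, including mesenchymal stem cells. CLOCK and BMAL1 (encoded by Arntl) bind E-boxes and activate the Per and Cry genes, whose proteins return to the nucleus and inhibit CLOCK and BMAL1. The same activators drive Nr1d1 and Nr1d2, which encode the REV-ERB nuclear receptors that repress Arntl, the output factors Dbp and Tef, which activate genes through D-boxes, and Bhlhe40 (DEC1), a basic helix-loop-helix repressor that competes for E-boxes. In cultured cells Per1 also responds within hours to serum, glucocorticoids and cAMP, and Bhlhe40 to many growth and stress signals.

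Promoter sequences of 9 of the 10 genes were found in the RefSeq table of build GRCr8, each running from 250 bases before to 50 bases after an annotated start. A pair of sets is shown, 5' to 3', with capitals marking the motif matches found. The first set holds Bhlhe40, Per2 and Cry2, whose PCL and ISB-P libraries did not overlap.
Bhlhe40 (chr4:143174200-143174499, + strand): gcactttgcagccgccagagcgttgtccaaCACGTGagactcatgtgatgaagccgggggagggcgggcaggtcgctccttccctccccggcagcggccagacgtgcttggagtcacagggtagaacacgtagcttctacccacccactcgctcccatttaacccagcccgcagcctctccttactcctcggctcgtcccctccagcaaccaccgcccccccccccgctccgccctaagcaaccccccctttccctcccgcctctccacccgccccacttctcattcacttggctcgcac
Per2 (chr9:99496944-99497243, - strand): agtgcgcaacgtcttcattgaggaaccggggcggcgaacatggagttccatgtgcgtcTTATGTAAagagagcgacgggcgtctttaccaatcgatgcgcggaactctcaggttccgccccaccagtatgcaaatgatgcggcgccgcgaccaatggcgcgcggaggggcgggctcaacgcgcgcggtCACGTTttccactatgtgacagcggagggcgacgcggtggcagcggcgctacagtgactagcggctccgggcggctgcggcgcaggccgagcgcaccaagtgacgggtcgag
Cry2 (chr3:98860388-98860687, - strand): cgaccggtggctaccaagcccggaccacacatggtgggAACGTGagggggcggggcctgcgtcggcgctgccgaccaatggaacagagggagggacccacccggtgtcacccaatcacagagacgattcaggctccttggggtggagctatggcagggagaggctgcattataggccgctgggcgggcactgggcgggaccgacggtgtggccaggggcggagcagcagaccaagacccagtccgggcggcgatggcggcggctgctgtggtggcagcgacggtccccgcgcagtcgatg
The second set holds the REV-ERB pair, of which Nr1d1 was lower and Nr1d2 higher in replicate 3 than in replicate 1. Nr1d1 has windows at 2 annotated starts.
Nr1d1 first window (chr10:84231763-84232062, - strand): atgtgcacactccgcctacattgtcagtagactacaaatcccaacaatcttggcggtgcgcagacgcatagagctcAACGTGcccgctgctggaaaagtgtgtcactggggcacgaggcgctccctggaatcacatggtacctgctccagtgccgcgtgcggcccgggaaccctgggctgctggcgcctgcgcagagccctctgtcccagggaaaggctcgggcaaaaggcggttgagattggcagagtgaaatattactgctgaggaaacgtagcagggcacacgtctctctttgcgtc
Nr1d1 second window (chr10:84229405-84229704, - strand): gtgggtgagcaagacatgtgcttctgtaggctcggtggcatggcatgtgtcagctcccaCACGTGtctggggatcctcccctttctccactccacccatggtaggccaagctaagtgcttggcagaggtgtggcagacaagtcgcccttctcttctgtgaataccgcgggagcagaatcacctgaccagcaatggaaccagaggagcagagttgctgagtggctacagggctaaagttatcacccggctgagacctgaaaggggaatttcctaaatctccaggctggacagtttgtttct
Nr1d2 (chr15:9954784-9955083, + strand): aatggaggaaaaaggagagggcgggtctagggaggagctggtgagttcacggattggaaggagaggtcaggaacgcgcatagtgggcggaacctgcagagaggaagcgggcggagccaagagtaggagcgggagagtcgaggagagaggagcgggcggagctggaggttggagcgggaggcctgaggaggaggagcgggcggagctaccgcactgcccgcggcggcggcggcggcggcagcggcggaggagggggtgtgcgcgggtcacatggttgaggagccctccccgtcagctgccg

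The motifs searched on both strands were the E-box CACGTG, the related E'-box CACGTT, the D-box TTATGNAA, the ROR element TAGGTCA bound by REV-ERB and ROR receptors, and the cAMP response element TGACGTCA. The E-box reads the same on both strands and does not overlap the E'-box. It was found in 3 of the 9 matched genes, at position -220 from the start in Bhlhe40, -198 in Tef and -191 in the second Nr1d1 window, and in 6.42% of all 33469 windows of this length. The E'-box was found at -62 in Per2 and, read on the other strand as AACGTG, at -212 in Cry2 and -174 in the first Nr1d1 window, and in 4.83% of all windows. The only D-box was TTATGTAA at -192 in Per2, a motif held by 3.66% of windows. The ROR element (2.63% of windows) and the cAMP response element (1.83%) were in none of the matched genes' windows, and the Nr1d2 window held none of the motifs searched. The counts are of genes and the shares of windows, which are unlike units, since Nr1d1 has 2 windows. The windows of the matched genes held 50.3 to 69.3% G and C, beside a median of 51.7% over all windows. The part of base composition in the matches was not tested. A match is a description of letters and not a bound site.

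**Figure D1:**
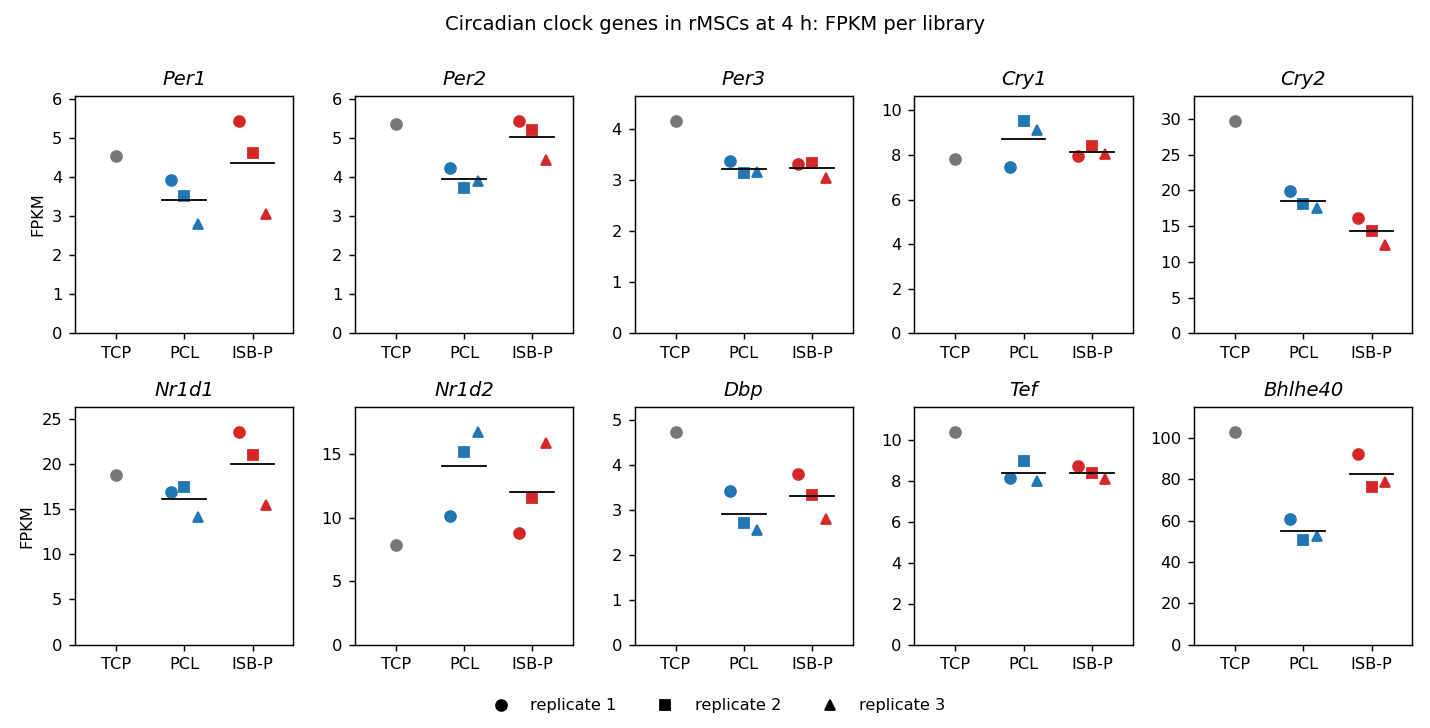
FPKM of each of the 10 clock genes (one panel per gene, linear axis from 0) in the TCP, PCL and ISB-P libraries, with each library as a point whose shape gives its replicate number and a horizontal line at the mean of a film. Bhlhe40 and Per2 lie higher and Cry2 lower on all 3 ISB-P libraries than on all 3 PCL libraries, and Nr1d2 is lowest in replicate 1 of both films.

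Bhlhe40 had the highest level of the 10 genes on every surface. On PCL it was followed by Cry2 with a mean of 18.5 FPKM, then by Nr1d1 (16.2 FPKM) and Nr1d2 (14.1 FPKM), whose ranges overlapped. Cry1 (8.69 FPKM) and Tef (8.37 FPKM) overlapped each other, and Per2, Per1, Per3 and Dbp, with means between 3.96 and 2.90 FPKM, each overlapped the next in the order. On ISB-P the means of Nr1d1 (20.01 FPKM), Cry2 (14.3 FPKM) and Nr1d2 (12.1 FPKM) ran together without a gap between neighbours, and Bhlhe40 again stood above them without overlap. Dbp had the lowest mean on PCL, and Per3 the lowest level on ISB-P and TCP.

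ISB-P was first compared with PCL, which asks whether the polymer under the cells went with a different clock transcript level. None of the 10 genes passed the test, 0 of 10 at an adjusted p under 0.05 (limma with Benjamini-Hochberg adjustment), against 1.72% of all tested genes. At an unadjusted p under 0.05 there were 3 of 10 (Bhlhe40, Cry2 and Per2), against 12.1%, and these were the same 3 whose films did not overlap, against 17.7%. The median difference, ISB-P minus PCL on log2(FPKM + 1), was 0.07 over the 10 genes and 0.02 over all tested genes, but that of the 10 ranged from -0.01 with scaling to a common total to 0.14 with quantile normalization and was 0.03 without ISB-P replicate 1, so it has no settled sign. With the replicate number as a block, which compares the films within a number, 3 of 10 passed (Bhlhe40 and Nr1d1 higher on ISB-P, Cry2 lower), near the 24.4% of all tested genes that passed that fit.

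Bhlhe40, the E-box repressor, measured 61.03, 50.7 and 52.7 FPKM on PCL (replicates 1, 2 and 3, the order used for every gene) and 92.5, 76.5 and 78.7 FPKM on ISB-P. Every ISB-P library was above every PCL library, and replicate 1 was the highest on both films. The means were 54.8 ± 5.49 FPKM on PCL and 82.6 ± 8.67 FPKM on ISB-P (SD, n = 3), a ratio of 1.51, and the ratio within the replicate numbers was 1.52, 1.51 and 1.49. On the log2(FPKM + 1) scale the difference was 0.58 with SE 0.14 and a 95% interval of 0.25 to 0.92 (limma, adjusted p = 0.126), and with the replicate block the SE was 0.07 and the adjusted p was 5.64e-04. The TCP library, at 102.9 FPKM, was above all 6 film libraries.

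Among the Cry genes, which encode the main inhibitors of CLOCK and BMAL1, Cry2 was at 19.97, 18.1 and 17.5 FPKM on PCL. On ISB-P it was 16.2, 14.4 and 12.4 FPKM, each below all the PCL libraries. The difference was -0.36 with SE 0.14 and a 95% interval of -0.69 to -0.02 (limma, adjusted p = 0.364), and with the replicate block the adjusted p was 0.0132. Its paralog Cry1 was 7.45, 9.52 and 9.11 FPKM on PCL and 7.95, 8.40 and 8.03 FPKM on ISB-P, so the films overlapped, and its difference of -0.08 had an interval of -0.39 to 0.23 (limma, adjusted p = 0.925). Scaling a library by a common factor does not change the ratio of Cry2 to Cry1 within it. This ratio was 2.68, 1.91 and 1.92 on PCL, 2.03, 1.71 and 1.54 on ISB-P and 3.81 on TCP. The ranges of this ratio on the films overlapped, and the TCP library was above both.

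The Per genes encode the partners of the CRY proteins. Per2 was 4.24, 3.73 and 3.91 FPKM on PCL and 5.44, 5.21 and 4.45 FPKM on ISB-P in replicates 1, 2 and 3, so the films did not overlap, although the highest PCL library and the lowest ISB-P library differed by little. Its difference was 0.28 with SE 0.12 and an interval of 0.00 to 0.56 (limma, adjusted p = 0.410). Per1, the family member known as an immediate early gene, was 3.93, 3.53 and 2.81 FPKM on PCL and 5.44, 4.61 and 3.07 FPKM on ISB-P. Replicate 3 of ISB-P lay within the PCL range, and the difference of 0.26 had an interval of -0.20 to 0.73 (limma, adjusted p = 0.765). Per3, thought to be dispensable for the core loop, was between 3.05 and 3.37 FPKM in all 6 film libraries, with a difference of 0.00 and an interval of -0.23 to 0.24 (limma, adjusted p = 0.994).

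Nr1d1 (REV-ERBα) was 16.9, 17.5 and 14.2 FPKM on PCL and 23.5, 21.01 and 15.5 FPKM on ISB-P in replicates 1, 2 and 3. Replicate 3 of ISB-P fell inside the PCL range and the films overlapped. The difference was 0.28 with an interval of -0.16 to 0.71 (limma, adjusted p = 0.708), and with the replicate block it passed narrowly, at an adjusted p of 0.0499997. Without the block, the difference was 0.15 when ISB-P replicate 1 was left out and 0.44 when ISB-P replicate 3 was. Nr1d1 shares 1061 bases of its gene model in GRCr8 with Thra, the thyroid hormone receptor alpha gene on the other strand, and Per2, Cry1 and Cry2 each overlap an uncharacterised gene model. Whether counting used the strand is not given, so reads of such pairs may not be separable. Thra was 22.3, 18.6 and 18.2 FPKM on PCL and 18.9, 15.1 and 12.1 FPKM on ISB-P. It was lower on ISB-P at each number where Nr1d1 was higher, and the part of shared reads was not tested. Nr1d2 (REV-ERBβ) was 10.2, 15.2 and 16.8 FPKM on PCL and 8.80, 11.5 and 15.9 FPKM on ISB-P, and its difference of -0.21 had an interval of -0.82 to 0.40 (limma, adjusted p = 0.8995).

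The output factors Dbp and Tef overlapped between the films. Dbp was 3.43, 2.71 and 2.55 FPKM on PCL and 3.79, 3.33 and 2.79 FPKM on ISB-P, a difference of 0.14 with an interval of -0.19 to 0.48 (limma, adjusted p = 0.861). Tef was between 7.98 and 8.97 FPKM in all 6 film libraries, a difference of 0.00 with an interval of -0.26 to 0.27 (limma, adjusted p = 0.994). These intervals leave room for differences in either direction and do not show that the films were alike for these genes.

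**Figure D2:**
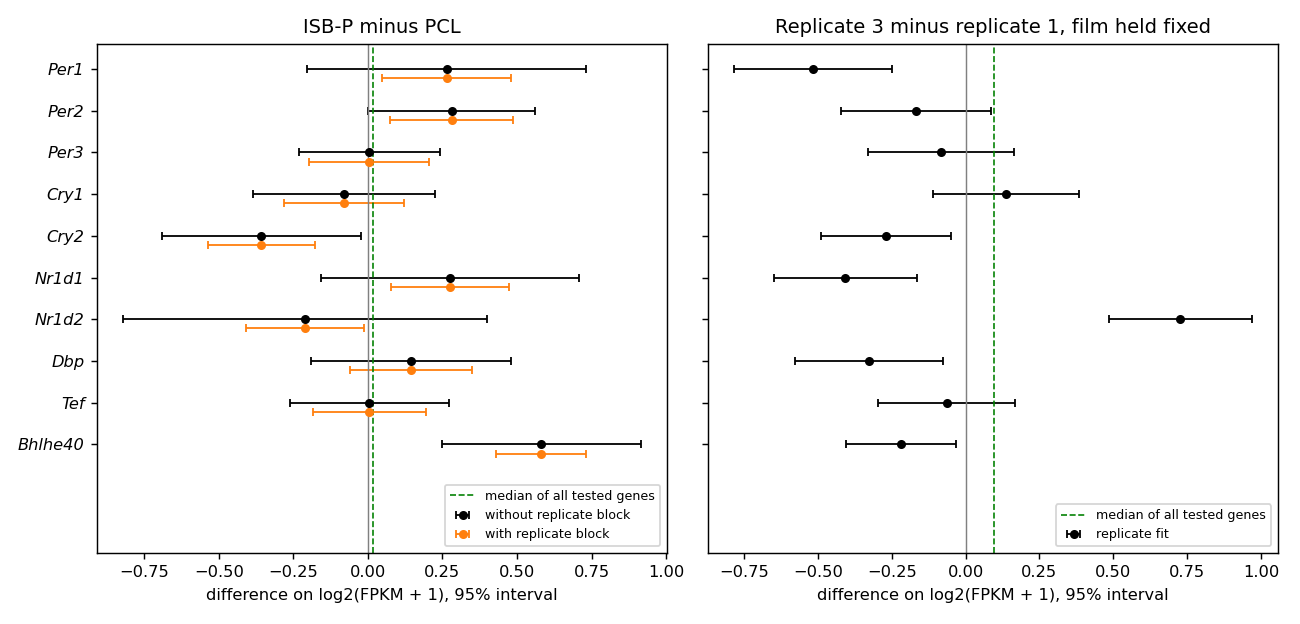
Differences on log2(FPKM + 1) with 95% intervals for the 10 clock genes, ISB-P minus PCL on the left (black without and orange with the replicate block) and replicate 3 minus replicate 1 with film held fixed on the right; the dashed line is the median of all tested genes. Bhlhe40 has the largest film difference of the 10 (0.58), and on the right Nr1d2 (0.73) and Per1 (-0.52) lie farthest from 0, on opposite sides.

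The libraries were then compared by replicate number, with film held fixed, since libraries sharing a number deviated together. The numbers have no order in what follows. The 10 genes split in opposite directions between replicates 3 and 1, with Nr1d2 higher and Per1, Nr1d1, Dbp, Cry2 and Bhlhe40 lower in replicate 3. That is 6 of 10 past an adjusted p of 0.05 (limma), against 61.7% of all tested genes, so the share that passed was near the background. Without replicate 1 of either film fewer of the 10 passed, and so did fewer of all tested genes. These runs leave 1 library with that number. The median difference of the 10 was then -0.18 without ISB-P replicate 1 and -0.20 without PCL replicate 1. Over all tested genes it was 0.12 and 0.07. The summed mesenchymal markers were 13373 and 13362 FPKM in replicate 1 of PCL and ISB-P. In replicate 3 they were 11570 and 10246 FPKM. Col1a1 and Vim, which make up most of that sum, were lower in replicate 3 on both films, as were Eng and Pdgfrb. Itgb1, Cd44, Nt5e and Vcam1 were higher on both, and Thy1 was higher on PCL and lower on ISB-P. The summed adipocyte markers were 33.5 and 38.4 FPKM in replicate 1 and 50.8 and 63.4 FPKM in replicate 3. Fabp4, Lpl, Pparg and Adipoq were higher in replicate 3 on both films, and Plin1 and Cfd were lower. The part of these markers in the replicate differences was not tested. The direction of the 10 genes was less even. Replicate 3 was below replicate 1 on both films for 8 of 10 genes, against 37.0% of all tested genes, and above it on both films for 2 of 10 (Nr1d2 and Cry1), against 51.5%. Under upper quartile, quantile and common total scaling the 10 gave 8 below and 1 above, and the share of all tested genes below was 46.9 to 49%, closer to the 10 than at the deposited scale. The median difference was -0.19 over the 10 genes and 0.09 over all tested genes, and with upper quartile scaling -0.35 and -0.06. By the test of any difference among the 3 numbers, 4 of 10 passed (Nr1d2, Per1, Nr1d1 and Bhlhe40; limma F test, adjusted p), against 58.4%.

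Nr1d2 had the largest difference of the 10. Its replicate 3 libraries (16.8 FPKM on PCL, 15.9 FPKM on ISB-P) were above its replicate 1 libraries (10.2 and 8.80 FPKM), with a difference of 0.73, SE 0.11 and a 95% interval of 0.48 to 0.97 (limma, adjusted p = 5.69e-04). Replicate 2 was also above replicate 1, by 0.45 (limma, adjusted p = 0.0194). Its paralog Nr1d1 went the other way: replicate 3 (14.2 and 15.5 FPKM) was below replicate 1 (16.9 and 23.5 FPKM) by a difference of -0.41 with an interval of -0.65 to -0.16 (limma, adjusted p = 0.00997). Without ISB-P replicate 1 this difference was -0.27 and did not pass (limma, adjusted p = 0.224). Within a library, the ratio of Nr1d1 to Nr1d2 stood at 1.66, 1.15 and 0.847 on PCL, 2.68, 1.82 and 0.974 on ISB-P and 2.39 on TCP. In both replicate 3 libraries Nr1d2 thus had the higher FPKM of the pair, on ISB-P by little (15.9 against 15.5 FPKM). In the other 5 libraries Nr1d1 had the higher FPKM.

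Per1 was lower in replicate 3 than in replicate 1 by a difference of -0.52 with SE 0.12 and an interval of -0.78 to -0.25 (limma, adjusted p = 0.00488). It was -0.37 on PCL and -0.66 on ISB-P taken alone. Per2 and Per3 had the same sign on both films, with differences of -0.17 (limma, adjusted p = 0.217) and -0.08 (limma, adjusted p = 0.520) that did not pass. Dbp, which often has the widest daily swing of the output factors, was lower in replicate 3 by a difference of -0.33 (limma, adjusted p = 0.0284), -0.32 on PCL and -0.34 on ISB-P. Tef, of the same family, differed by -0.06 (limma, adjusted p = 0.602).

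Cry2 was lower in replicate 3 by a difference of -0.27 (limma, adjusted p = 0.0376) and Cry1 differed by 0.14 in the other direction without passing (limma, adjusted p = 0.300). Bhlhe40 was lower both in replicate 3, by -0.22 (limma, adjusted p = 0.0427), and in replicate 2, by -0.27 (limma, adjusted p = 0.0428), than in replicate 1. The calls for Dbp, Cry2 and Bhlhe40 were lost when single libraries were left out, while their differences kept their sign, at -0.37 to -0.29 for Dbp, -0.35 to -0.19 for Cry2 and -0.23 to -0.21 for Bhlhe40. Dbp did not pass without PCL replicate 1 (adjusted p = 0.152), ISB-P replicate 1 (0.114) or ISB-P replicate 3 (0.105). Cry2 passed only without PCL replicate 3, with adjusted p between 0.067 and 0.347 without each other library, and Bhlhe40 did not pass without replicates 1 or 2 of either film (adjusted p between 0.118 and 0.346). Nr1d2 and Per1 passed without each library in turn, with highest adjusted p of 4.12e-04 and 0.0498.

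**Figure D3:**
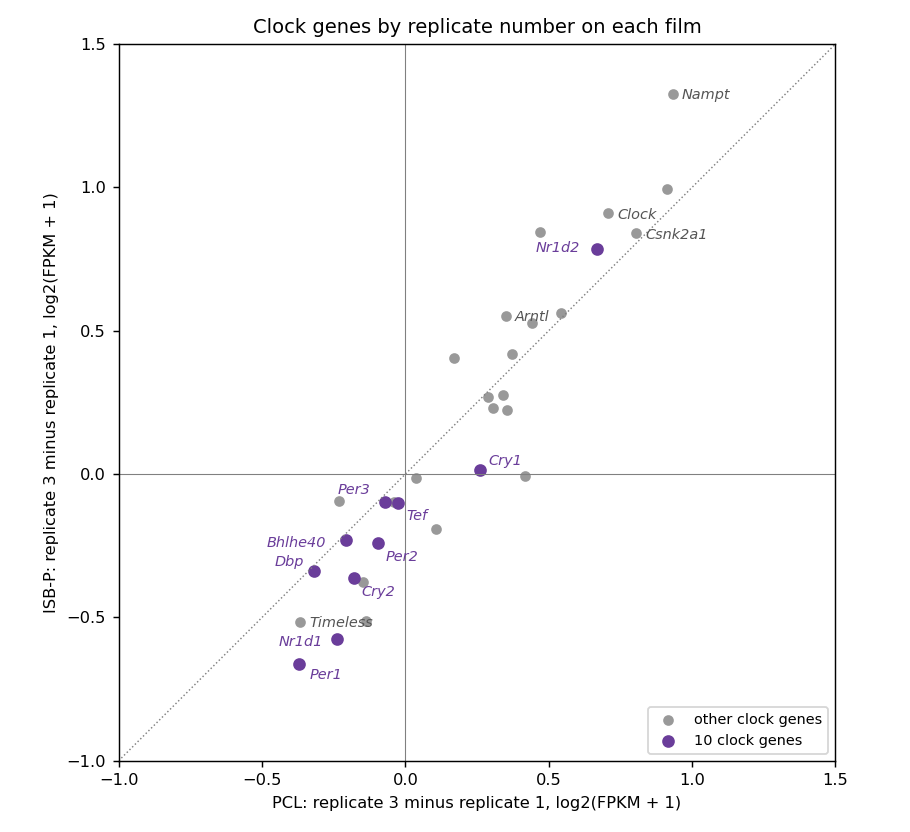
Replicate 3 minus replicate 1 on log2(FPKM + 1) for PCL (horizontal) and ISB-P (vertical), for the 10 clock genes (purple) and 22 other clock genes (grey), with the diagonal dotted. Of the 10 genes, 8 lie below 0 on both films and Nr1d2 lies far above 0 on both, near Clock.

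A list of 32 other clock genes was examined beside them; 24 were found and 22 passed the filter, and Rora, Bhlhe41, Hlf and Ciart were among those not analysed here. Between the films 0 of 22 passed (limma), against 1.72% of all tested genes. At an unadjusted p under 0.05 there was 1 of 22, Nfil3, against 12.1%. Npas2 and Arntl2 were lower and Nfil3 higher on ISB-P without overlap, 3 of 22 against 17.7%. Nfil3, the repressor that opposes Dbp and Tef at D-boxes, was 16.1, 14.7 and 17.5 FPKM on PCL and 23.1, 19.1 and 20.2 FPKM on ISB-P. Its difference of 0.35 did not pass without the block (limma, adjusted p = 0.350) and passed with it (adjusted p = 0.0189), as did that of Nampt, the enzyme of NAD salvage (0.62, adjusted p = 0.651 without and 0.00224 with the block). Without the block, the Nampt difference was 0.26 when ISB-P replicate 3 was left out, 0.38 without PCL replicate 1 and 0.92 without ISB-P replicate 1. Between replicates 3 and 1, 14 of 22 were higher and 2 (Csnk1e and Timeless) lower in replicate 3 at an adjusted p under 0.05 (limma), 16 of 22 against 61.7% of all tested genes. Fewer of the 22, and of all tested genes, passed without replicate 1 of either film, which leaves 1 library with that number. By the F test, 12 of 22 passed, against 58.4% of all tested genes, and again fewer of both without either library. The median of the 22 was 0.29, opposite in sign to that of the 10. It was 0.36 without ISB-P replicate 1 and 0.25 without PCL replicate 1.

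The activators themselves were among those higher in replicate 3. Arntl was 20.1, 23.3 and 25.8 FPKM on PCL and 21.8, 25.5 and 32.4 FPKM on ISB-P, a difference of 0.45 (limma, adjusted p = 0.00359) that did not pass without ISB-P replicate 1 (0.40, adjusted p = 0.0669). Clock was 14.8, 24.9 and 24.8 FPKM on PCL and 15.9, 23.5 and 30.7 FPKM on ISB-P, a difference of 0.81 (limma, adjusted p = 4.10e-04). Within a library, the ratio of Per1 to Arntl stood at 0.196, 0.152 and 0.109 on PCL and 0.250, 0.181 and 0.0946 on ISB-P, and the ratio of Dbp to Arntl was 0.171, 0.117 and 0.0987 on PCL and 0.174, 0.131 and 0.0860 on ISB-P. Both ratios, which scaling a library by a common factor does not change, were thus higher in the replicate 1 library of each film than in its replicate 3 library. Csnk2a1, a subunit of casein kinase 2, which phosphorylates clock proteins, was also higher in replicate 3, by 0.82 (limma, adjusted p = 1.95e-04). Upper quartile scaling lowered the median of all tested genes from 0.09 to -0.06 and changed the split of the 22 from 14 higher and 2 lower to 9 and 5, and that of the 10 from 1 and 5 to 1 and 6.

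Genes of the signalling pathways that induce Per1 were taken as a further list. It was chosen with earlier results of these data known, so the shares that passed describe these genes and do not test a pathway. Of 7 tested glucocorticoid receptor targets, 2 passed between the films, against 1.72% of all tested genes. These were Tsc22d3 and Errfi1, both higher on ISB-P. Tsc22d3 (GILZ) was 10.4, 10.7 and 13.5 FPKM on PCL and 29.9, 36.4 and 42.0 FPKM on ISB-P, a difference of 1.56 (limma, adjusted p = 0.0109), and the TCP library was at 45.3 FPKM. It did not pass without PCL replicate 1, PCL replicate 2 or ISB-P replicate 2 (adjusted p between 0.0639 and 0.107), although its difference stayed between 1.45 and 1.68 without each library in turn. Errfi1, an inhibitor of EGF receptor signalling, was 53.1, 66.02 and 69.2 FPKM on PCL and 135, 158 and 177 FPKM on ISB-P, a difference of 1.31 (limma, adjusted p = 0.0177) that did not pass without any of the PCL libraries or without ISB-P replicate 2 (adjusted p between 0.0643 and 0.144), with differences of 1.19 to 1.41 without each library in turn. For Errfi1 the TCP library, at 42.8 FPKM, was below all 6 film libraries, where for Tsc22d3 it was above all 6. With the replicate block Klf9 also passed, at 0.33 (limma, adjusted p = 0.0383), which makes 3 of 7 against the 24.4% of all tested genes that passed that fit. Of the rest, Fkbp5 differed by -0.12 and Cebpd by -0.19, lower on ISB-P, and Sgk1 by 0.25 and Pdk4 by 0.32, and none of these 4 passed with or without the block. The CREB list of 8 genes held CREB targets and also Creb1, which encodes CREB, and Crtc1, a CREB coactivator. Of these 8, 0 passed (limma), against the same 1.72%. Sik1 and Crem had an unadjusted p under 0.05, against 12.1% of all tested genes. With the block Sik1 (1.06) and Crem (0.54) were higher on ISB-P and Fos (-0.33) lower (limma, adjusted p = 2.28e-04, 0.00531 and 0.0496), 3 of 8 against the same 24.4%. Without the block, Fos was at -0.19 when ISB-P replicate 3 was left out, and Klf9 at 0.22 when ISB-P replicate 1 was. The median of the glucocorticoid list was 0.32 and that of the CREB list -0.15, beside 0.02 for all tested genes.

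The films were last set against the single TCP library, without a test. On PCL 0 of 10 genes had a mean over 2-fold from TCP on log2(FPKM + 1), against 8.60% of all tested genes, and on ISB-P 1 of 10 did (Cry2, -1.004), against 13.3%. TCP was above all 6 film libraries for 5 of 10 genes (Bhlhe40, Cry2, Tef, Dbp and Per3), against 25.4%, and below all 6 for Nr1d2 only, against 29.7%. Cry2 was 29.7 FPKM on TCP and at most 19.97 FPKM on a film. Nr1d2 was 7.85 FPKM on TCP and at least 8.80 FPKM on a film. Dbp was 4.72 FPKM, Tef 10.4 FPKM and Per3 4.16 FPKM on TCP, each above its 6 film libraries by a smaller margin than Cry2. For Per1 (4.54 FPKM), Per2 (5.37 FPKM), Cry1 (7.80 FPKM) and Nr1d1 (18.8 FPKM) the TCP library lay within the range of the films. The median over TCP was -0.31 on PCL and -0.18 on ISB-P for the 10 genes, and 0.07 and 0.08 for all tested genes.

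**Figure D4:**
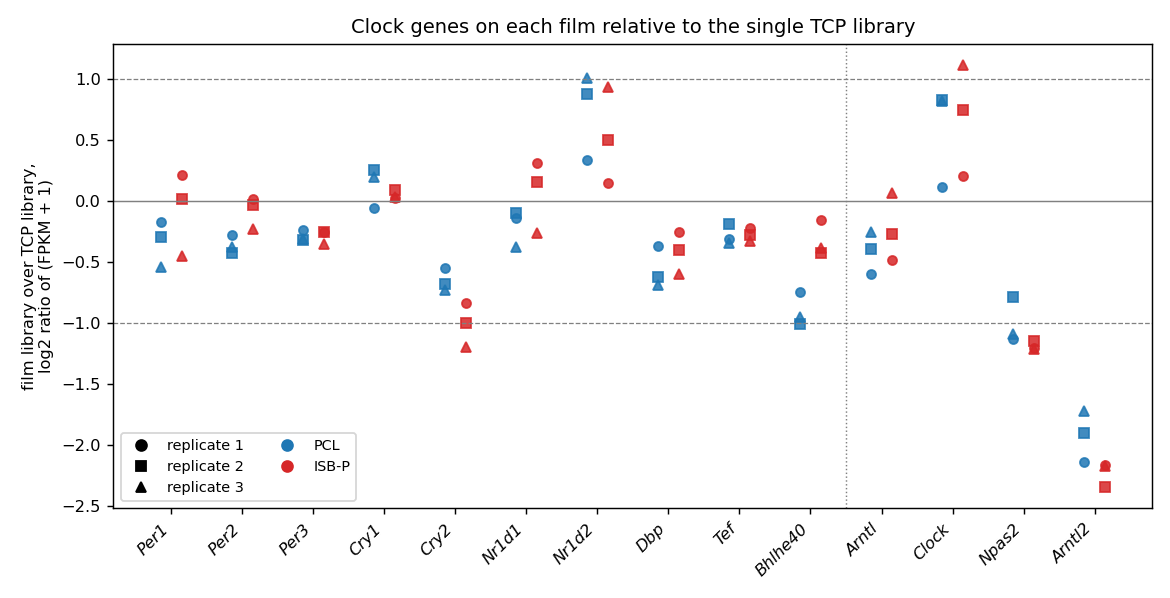
Each film library over the single TCP library, as the log2 ratio of FPKM + 1, for the 10 clock genes and, right of the dotted line, Arntl, Clock, Npas2 and Arntl2; shapes give the replicate number, and dashed lines mark 2-fold. Of the 10, Cry2 on ISB-P and Bhlhe40 on PCL lie near or past the lower line, and Nr1d2 lies above 0 in all 6 libraries.

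Of the 22 other clock genes, 2 were over 2-fold from TCP on PCL, against 8.60% of all tested genes. On ISB-P 4 were, against 13.3%. Arntl2, a paralog of Arntl, was 9.48 FPKM on TCP and at most 2.19 FPKM on a film (-1.91 on PCL and -2.22 on ISB-P), and Npas2, a paralog of Clock, was 8.03 FPKM on TCP and at most 4.23 FPKM on a film (-0.995 on PCL and -1.19 on ISB-P). Timeless, a replication fork protein related to the fly clock gene, was higher on the films by 1.495 and 1.47, and Wee1, a cell cycle kinase under clock control, by 0.91 and 1.01. Blood markers summed to 129.5 FPKM on TCP against no more than 46.6 FPKM on a film, and adipocyte markers to 123 FPKM against 33.5 to 63.4 FPKM; their part in the TCP differences was not tested. In bulk RNA, fewer cells of a type and less RNA per cell cannot be told apart.

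The genes whose pattern over the 7 libraries was most like that of 3 of the clock genes were found by the root mean square difference of centred log2(FPKM + 1) profiles. For Per1 they were Srebf1 (0.05), Pxn (0.06) and Pdlim7 (0.06), where the profile of Per1 itself varied by a root mean square of 0.25. Nr1d1, at 0.22, was nearest to Sp2 (0.05) and Sertad3 (0.06), and Dbp, also at 0.22, to Bmp1 (0.05), Plod1 (0.05) and Fbxo6 (0.06). Srebf1, for example, was 17.1 FPKM in ISB-P replicate 1 and 9.46 FPKM in ISB-P replicate 3. All of these values come from the same 7 libraries and share their scaling.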

How the data were processed

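RNA-seq of rMSCs was available as 7 libraries (3 ISB-P, 3 PCL, 1 TCP), grouped by the sample labels. The authors used a TruSeq stranded mRNA kit, and the submitters' processing notes name bcl2fastq 2.20.0.422, cutadapt 1.18, TopHat2 2.0.13, Cuffdiff 2.2.1 and build rn5; the annotation and strand setting are not given in the sources used here. The deposited values, 1 per gene symbol and library, were read as FPKM as Cuffdiff gives them, which their non-whole values and unequal sums allow; the unit is not named in the labels. FPKM are normalised to library size and transcript length before deposit, so a few very abundant genes can shift all others.

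Here values were taken as log2(FPKM + 1) for the 9467 genes that reached 1 FPKM in 3 or more film libraries, and tested two-sided with limma 3.58.1 in R 4.3.3 (eBayes with trend; Benjamini-Hochberg over all tested genes; threshold 0.05). Fold changes on this scale understate the change of low genes. ISB-P was compared with PCL without a block, and replicate numbers with film as a term. Libraries with the same replicate number deviated together: deviations from the film means correlated at 0.887, 0.431 and 0.868 (Pearson's r over genes) for the same number. For different numbers the values ran from -0.836 to 0.177. The 3 deviations of a gene on a film cancel out, so these lower values partly follow from the higher ones. Both fits were tested on simulated data. TCP was described without a test. Promoters and gene overlaps came from RefSeq tables of GRCr8; coordinates in GRCr8 were used for promoters only, since the files' build is rn5. The 10 genes and the lists were chosen with earlier results of these data known. Genes named besides the 10 were those called in their list, the highest ones per role, and the 3 nearest in pattern to Per1, Nr1d1 and Dbp, of which some are not reported here; Thra was added after its values were seen, as the gene overlapping Nr1d1. Alternatives were other scalings, pseudocounts, filters, no trend, TCP in the fit, the block, and each library left out.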

Additional observations from a re-analysis of the deposited data

Results flagged for a closer look

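Of the 10 and the 22 other tested clock genes, 3, all among the 22, moved in opposite directions on the films between replicates 1 and 3. The measure was replicate 3 minus replicate 1 on log2(FPKM + 1), with 1 library per film and number, and the difference between the films was not tested. Of all tested genes, 37.0% were below and 51.5% above on both films, which leaves the rest without a shared direction. Npas2 differed by 0.0385 on PCL and -0.0125 on ISB-P, Arntl2 by 0.418 on PCL and -0.0066 on ISB-P, and Nfil3 by 0.106 on PCL and -0.190 on ISB-P. The values for Npas2 are close to 0 on both films.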

How the results depend on the processing

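Between ISB-P and PCL, 0 of the 10 clock genes and 0 of the 22 other clock genes passed in every alternative run except the replicate block, where 3 and 2 passed; it also added calls for Klf9, Sik1, Crem and Fos and changed no other call named in the report. Of all tested genes, 104 had a higher and 59 a lower level on ISB-P, against 1228 and 1079 with the block and 70 and 70 with scaling to a common total, which moved the median of all genes from 0.02 to -0.09. Between replicates 3 and 1, 3644 were higher and 2194 lower, against 2761 and 3296 with upper quartile scaling. By replicate number, 4 of the 10 passed the F test, 2 (without ISB-P replicate 1) to 5 without one library each and 6 under upper quartile scaling, quantile normalization or scaling to a common total; of the 22, 12 passed, and 7 (without replicate 1 of either film) to 15 without one library. Against TCP, 1 of the 10 was over 2-fold on PCL with quantile normalization instead of 0, and on ISB-P the count was 0 to 1 without one library (0 without ISB-P replicate 3). Film differences that crossed 0 were those of Per3 (0.00; -0.0110 with upper quartile scaling, -0.0841 with a common total, -0.0136 to 0.0369 without one library), Tef (0.00; -0.0131, -0.0987 and -0.0245 to 0.0505) and Clock (0.10; -0.00928 with a common total, -0.135 to 0.343 without one library). Replicate differences that crossed 0 were those of Cry1 (-0.0200 with upper quartile scaling), Npas2 (-0.118, -0.0466 and -0.0966 with upper quartile, quantile and common total, -0.0711 to 0.0971 without one library) and Arntl2 (-0.00417 to 0.415 without one library). None of these passed the test in the report. The cause of these changes was not tested. With at least 5 FPKM required, Per1, Per2, Per3 and Dbp were not tested. Depth is unknown, so precision rests on 3 libraries a film.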
